A study of Homo sapiens with 6 samples.

Results

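The genes described here are 28 genes of cholesterol synthesis and sterol control, read in MOLT-4, an established line of human T-cell leukemia (T-ALL) cells. They are taken by name, for what their products do, and were chosen with earlier results of these data known. Each of the 28 symbols was found in every table, out of 60640 gene identifiers listed there, and all 28 were among the 12652 genes with a mean of at least 1 FPKM that were tested. FPKM is the number of fragments per kilobase of transcript, scaled to the number of mapped fragments, so levels of different genes could be compared per length. The 28 comprise 7 genes of the precursor and mevalonate steps, 3 of the steps to squalene and lanosterol, 8 of the conversion of lanosterol to cholesterol, 5 of sterol sensing, 4 of sterol transport and storage, and the fatty acid synthase gene FASN.

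Polyadenylated RNA was sequenced for 3 wild type libraries (the CRISPR knockout control) and for 3 IK-KO libraries, where IKZF1 was targeted with CRISPR-Cas. IKZF1 encodes IKAROS, a DNA binding protein of lymphocytes. Both groups were grown in RPMI1640 medium with 10% fetal bovine serum, which itself supplies lipoprotein cholesterol, and the labels name no other agent. According to the study's supplementary methods, the edited cells and their control came from a commercial supplier. The labels name no clone, and they do not say whether the libraries are separate cultures, so that p-values may measure technical spread alone. The comparison asks which transcripts of the pathway differ in level between the IK-KO libraries and their control. In this design, the effect of targeting IKZF1 cannot be told apart from other differences between the edited and control cells.

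Cells build cholesterol from acetyl-CoA through mevalonate, farnesyl diphosphate, squalene and lanosterol, and the genes of these enzymes are classical targets of the sterol regulatory element binding proteins (SREBPs). SREBPs are made as membrane proteins held in the endoplasmic reticulum by SCAP and INSIG. When membrane sterol falls, SCAP escorts them to the Golgi, where proteases free the part that enters the nucleus and, together with NF-Y and Sp factors, raises transcription of the pathway. Growing lymphocytes and leukemia cells need sterol for new membrane and isoprenoids for anchoring signalling proteins.

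The promoter windows of 6 members are printed to show where letters known from sterol-controlled promoters lie in genes that differed between the groups. They are the largest faller with a window in each of the first 4 role groups, a further sensor, and the only member called higher. Each window holds 250 bases before and 50 bases after the start that RefSeq gives on GRCh38.p14, and is written 5′ to 3′ along the gene's strand. Capitals mark the NF-Y box (CCAAT, or ATTGG on the other strand) and the sterol response element searched as TCACNCCAC or its shorter form CACNCCAC, on either strand. The windows are those of MVD at chr16:88663042-88663341 on the minus strand, LSS at chr21:46228725-46229024 on the minus strand, CYP51A1 at chr7:92134428-92134727 on the minus strand, SREBF2 at chr22:41832855-41833154 on the plus strand, INSIG1 at chr7:155297628-155297927 on the plus strand and NPC2 at chr14:74493463-74493762 on the minus strand.
MVD: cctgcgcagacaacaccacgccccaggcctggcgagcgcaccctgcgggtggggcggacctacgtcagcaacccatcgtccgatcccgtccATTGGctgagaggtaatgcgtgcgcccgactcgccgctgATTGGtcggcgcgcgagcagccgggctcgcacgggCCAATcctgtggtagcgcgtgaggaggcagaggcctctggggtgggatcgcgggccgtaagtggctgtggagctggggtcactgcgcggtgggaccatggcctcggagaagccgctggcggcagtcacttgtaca
LSS: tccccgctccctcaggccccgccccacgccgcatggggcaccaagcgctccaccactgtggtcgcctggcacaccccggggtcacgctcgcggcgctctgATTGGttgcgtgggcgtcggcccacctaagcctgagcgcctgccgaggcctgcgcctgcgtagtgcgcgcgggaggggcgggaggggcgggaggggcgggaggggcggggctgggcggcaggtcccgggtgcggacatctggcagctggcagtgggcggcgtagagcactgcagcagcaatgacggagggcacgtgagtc
CYP51A1: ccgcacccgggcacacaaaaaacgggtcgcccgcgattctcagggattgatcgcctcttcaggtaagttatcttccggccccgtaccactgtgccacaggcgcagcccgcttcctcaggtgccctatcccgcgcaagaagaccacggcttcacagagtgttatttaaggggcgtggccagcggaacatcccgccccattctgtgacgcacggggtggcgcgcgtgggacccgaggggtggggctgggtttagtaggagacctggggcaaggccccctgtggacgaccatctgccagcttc
SREBF2: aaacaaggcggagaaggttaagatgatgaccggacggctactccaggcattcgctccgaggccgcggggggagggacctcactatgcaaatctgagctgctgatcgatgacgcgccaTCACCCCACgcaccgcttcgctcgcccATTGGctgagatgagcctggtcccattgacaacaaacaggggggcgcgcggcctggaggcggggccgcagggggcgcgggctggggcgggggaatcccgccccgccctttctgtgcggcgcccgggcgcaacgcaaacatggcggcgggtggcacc
INSIG1: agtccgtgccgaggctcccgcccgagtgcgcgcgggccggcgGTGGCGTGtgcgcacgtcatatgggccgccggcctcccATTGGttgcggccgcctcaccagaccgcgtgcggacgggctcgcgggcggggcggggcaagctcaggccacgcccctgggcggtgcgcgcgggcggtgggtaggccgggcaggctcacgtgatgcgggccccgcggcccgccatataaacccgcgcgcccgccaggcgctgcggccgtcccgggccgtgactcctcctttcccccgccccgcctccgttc
NPC2: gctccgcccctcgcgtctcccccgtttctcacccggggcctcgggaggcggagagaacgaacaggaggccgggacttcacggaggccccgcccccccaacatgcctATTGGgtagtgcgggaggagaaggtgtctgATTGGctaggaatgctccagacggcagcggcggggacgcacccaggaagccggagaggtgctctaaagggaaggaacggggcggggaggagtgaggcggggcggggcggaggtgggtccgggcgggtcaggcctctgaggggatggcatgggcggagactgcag
MVD carried 3 NF-Y boxes, LSS carried 1, and CYP51A1 carried neither kind of match. SREBF2 held the full sterol response element, at 133 bases before its start, followed by an NF-Y box. In INSIG1 the shorter element preceded the NF-Y box, and NPC2 held 2 NF-Y boxes without a sterol response element. NPC2 has another RefSeq start, whose window held neither kind of match.

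Between 21254 and 21887 rows per library were above 0, the summed FPKM was 699352 to 738051, and mitochondrially encoded genes took 13.0% to 14.4% of it. The files give no counts, so the depth is unknown, but they give confidence bounds for each value. All 8 T-lymphoid markers were at 1 FPKM or more in every library, with a summed level of 967 to 1067 FPKM in wild type and 1035 to 1062 FPKM in IK-KO. The 4 myeloid, 3 erythroid and 4 epithelial and stromal markers stayed under 1 FPKM in every library, with HBG1 and EPCAM at 0, as did 3 of 4 B cell markers. Transcripts of IKZF1 itself were higher in IK-KO, at 207, 260 and 207 FPKM against 134, 124 and 105 (adjusted p = 0.00295, limma). A gene-level FPKM does not show whether the targeted sequence is intact, so this does not check the label, and IK-KO is used below as the name on the libraries. According to its supplementary methods, the study checked the knockout by PCR and western blot. In bulk RNA, fewer cells expressing a gene and less RNA per cell cannot be told apart.

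Most sterol synthesis transcripts were lower in IK-KO. Of the 28 genes, 17 (60.7%) passed an adjusted p of 0.05 in limma on log2(FPKM + 1), against 19.9% of all tested genes. Lower levels were called for 16 (57.1%, against 9.75% of all tested genes) and a higher level for 1, NPC2 (3.57%, against 10.1%). In 19 genes (67.9%, against 18.1%) all 3 IK-KO libraries lay below all 3 wild type libraries, and in 3 genes (10.7%, against 20.9%) they lay above. The median log2 change of the 28 was −0.34, beside 0.02 over all tested genes, and 25 of 28 (89.3%) had a negative change against 47.3% of all. Among the 18 cholesterol synthesis enzymes within the 28, every change was negative, 13 were called lower, and the median change was −0.41. The 28 do not hold every enzyme of the pathway. LBR, a sterol reductase among the related genes below, was not called, at 0.12 on the log2 scale (adjusted p = 0.258).

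**Figure D1:**
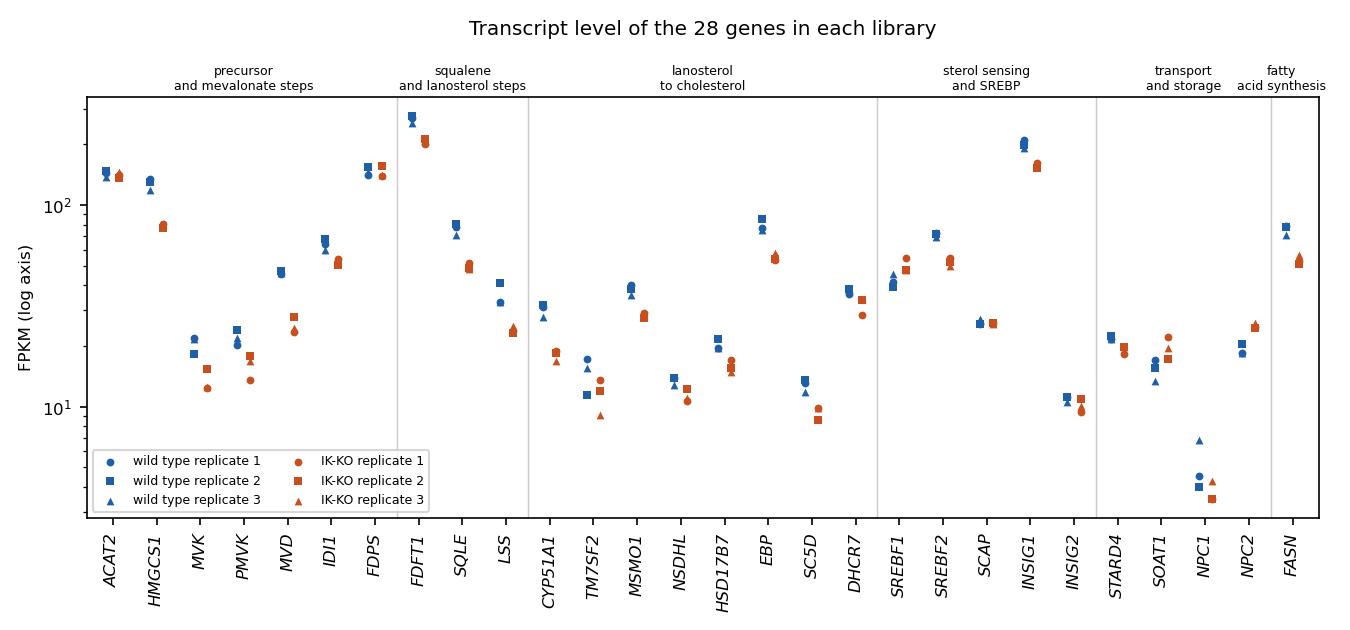
FPKM on a log axis of each of the 28 genes in each library, with 3 wild type (blue) and 3 IK-KO (orange) libraries per gene and the marker shape giving the replicate. For MVD, HMGCS1, SQLE, CYP51A1 and SREBF2 the groups do not overlap, while those of FDPS, ACAT2 and SCAP lie on top of each other.

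Levels spanned a wide range. FDFT1 was the most abundant of the 28, with a mean of 267 FPKM in wild type, and NPC1 the least, with 5.12 FPKM. HMGCS1, FDPS, FDFT1, INSIG1 and ACAT2 lay above the 90th percentile of tested genes by level. Across the 28 genes, level and log2 change were hardly related (Pearson −0.08, Spearman −0.15, n = 28 genes measured in the same 6 libraries).

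At the entry to the pathway, HMGCS1 fell and ACAT2 was not called. HMGCS1, the synthase that condenses acetyl-CoA with acetoacetyl-CoA into HMG-CoA, lies at chr5:43287470-43313512 (ENSG00000112972.15, minus strand). HMGCS1 levels were 135, 130.3 and 118 FPKM in wild type replicates 1 to 3, against 80.4, 76.9 and 80.4 FPKM in those of IK-KO. All IK-KO values lay below the lowest wild type value, and the mean was 61.9% of wild type. Mean HMGCS1 was 128 ± 8.58 FPKM in wild type and 79.2 ± 2.0 FPKM in IK-KO (SD, n = 3), giving a log2 difference of −0.68 ± 0.06 (SE, adjusted p = 0.000519). ACAT2, the cytosolic thiolase that makes acetoacetyl-CoA, lies at chr6:159762045-159779112 (ENSG00000120437.9, plus strand). ACAT2 levels were 144, 148 and 137 FPKM in wild type replicates 1 to 3, against 141, 137 and 146 FPKM in those of IK-KO. The groups overlapped throughout. Mean ACAT2 was 143 ± 5.28 FPKM in wild type and 141 ± 4.66 FPKM in IK-KO (SD, n = 3), giving a log2 difference of −0.02 ± 0.05 (SE, adjusted p = 0.852). ACAT2 shares its 3′ end with TCP1 on the other strand, which was called higher by 0.24, and no source used here says whether strand was used in counting. The 50 tested genes nearest to ACAT2 on chromosome 6 had a median change of 0.18. Relative to these neighbours ACAT2 was called lower, at −0.19 on the log2 scale (adjusted p = 0.0374, without the error of the neighbour median).

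The kinases and the decarboxylase that turn mevalonate into isopentenyl diphosphate were all called lower. MVK, mevalonate kinase at chr12:109573255-109598125 (ENSG00000110921.14, plus strand), read 21.97, 18.3 and 21.6 FPKM in wild type replicates 1 to 3, against 12.4, 15.3 and 12.5 FPKM in those of IK-KO. The highest IK-KO library stayed below the lowest wild type library. Mean MVK was 20.6 ± 2.0 FPKM in wild type and 13.4 ± 1.66 FPKM in IK-KO (SD, n = 3), giving a log2 difference of −0.59 ± 0.11 (SE, adjusted p = 0.0102). PMVK, phosphomevalonate kinase at chr1:154924740-154936719 (ENSG00000163344.6, minus strand), read 20.1, 24.1 and 21.8 FPKM in wild type replicates 1 to 3, against 13.6, 17.8 and 16.9 FPKM in those of IK-KO. Its change was smaller and closer to the threshold. Mean PMVK was 22.02 ± 2.01 FPKM in wild type and 16.1 ± 2.17 FPKM in IK-KO (SD, n = 3), giving a log2 difference of −0.43 ± 0.11 (SE, adjusted p = 0.0368). The call was lost on leaving out any of 5 libraries (IK-KO replicates 1 and 3 and each wild type replicate), with adjusted p between 0.0589 and 0.115. MVD, the mevalonate diphosphate decarboxylase at chr16:88651935-88663161 (ENSG00000167508.12, minus strand), had the largest fall of the 28. MVD levels were 45.3, 47.3 and 45.8 FPKM in wild type replicates 1 to 3, against 23.4, 27.9 and 24.5 FPKM in those of IK-KO. The mean was 54.8% of wild type. Mean MVD was 46.1 ± 1.02 FPKM in wild type and 25.3 ± 2.34 FPKM in IK-KO (SD, n = 3), giving a log2 difference of −0.85 ± 0.07 (SE, adjusted p = 0.000518). Even the upper confidence bounds of IK-KO, up to 30.7, did not reach the lowest wild type lower bound of 36.2.

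Of the isoprenoid steps that follow, IDI1 was called lower and FDPS was not called. IDI1, the isomerase that makes dimethylallyl diphosphate, lies at chr10:1039152-1049170 (ENSG00000067064.11, minus strand). IDI1 levels were 64.4, 68.2 and 60.05 FPKM in wild type replicates 1 to 3, against 54.0, 50.2 and 52.6 FPKM in those of IK-KO. The groups did not overlap and the fall was modest. Mean IDI1 was 64.2 ± 4.07 FPKM in wild type and 52.3 ± 1.91 FPKM in IK-KO (SD, n = 3), giving a log2 difference of −0.29 ± 0.06 (SE, adjusted p = 0.0187). The call was lost without IK-KO replicate 2 or 3 or wild type replicate 1 or 2 (adjusted p 0.0539 to 0.0651). FDPS, which makes farnesyl diphosphate, the branch point to sterols, ubiquinone and protein prenylation, lies at chr1:155308748-155320666 (ENSG00000160752.14, plus strand). FDPS levels were 141, 155 and 146 FPKM in wild type replicates 1 to 3, against 139.9, 157 and 140.3 FPKM in those of IK-KO. Replicate 2 was the highest library in both groups, and the groups overlapped. Mean FDPS was 147 ± 7.2 FPKM in wild type and 146 ± 9.62 FPKM in IK-KO (SD, n = 3), giving a log2 difference of −0.02 ± 0.06 (SE, adjusted p = 0.879). The 50 tested genes around FDPS on the long arm of chromosome 1 had a median change of 0.25, as did those around PMVK, a short distance away. Relative to its neighbours FDPS was called lower, at −0.27 on the log2 scale (adjusted p = 0.0301, without the error of the neighbour median). Why the neighbourhoods differed between the groups was not tested. The sum over the 7 genes of these steps was 571 ± 19.7 FPKM in wild type and 473 ± 8.26 FPKM in IK-KO (SD, n = 3), or 82.8% of wild type.

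All 3 members of the steps to squalene and lanosterol were called lower, against 9.75% of all tested genes. FDFT1, squalene synthase on chromosome 8, read 269.9, 276 and 254 FPKM in wild type replicates 1 to 3, against 202, 212 and 207 FPKM in those of IK-KO. This most abundant member fell by a moderate factor with little spread. Mean FDFT1 was 267 ± 11.2 FPKM in wild type and 207 ± 5.18 FPKM in IK-KO (SD, n = 3), giving a log2 difference of −0.36 ± 0.05 (SE, adjusted p = 0.00265). SQLE, squalene epoxidase, the oxygen-dependent step that is one of the slow steps of the pathway, read 77.99, 80.2 and 71.1 FPKM in wild type replicates 1 to 3, against 51.7, 48.9 and 48.4 FPKM in those of IK-KO. The mean was 64.98% of wild type, and no library crossed between the groups. Mean SQLE was 76.4 ± 4.74 FPKM in wild type and 49.7 ± 1.77 FPKM in IK-KO (SD, n = 3), giving a log2 difference of −0.61 ± 0.06 (SE, adjusted p = 0.000878). LSS, lanosterol synthase, which closes the sterol rings, lies at chr21:46188141-46228824 (ENSG00000160285.15, minus strand). LSS levels were 32.9, 41.01 and 33.1 FPKM in wild type replicates 1 to 3, against 23.9, 23.1 and 25.01 FPKM in those of IK-KO. Wild type replicate 2 stood above its group, yet all wild type values exceeded all IK-KO values. Mean LSS was 35.7 ± 4.62 FPKM in wild type and 23.99 ± 0.97 FPKM in IK-KO (SD, n = 3), giving a log2 difference of −0.55 ± 0.09 (SE, adjusted p = 0.00778). The sum of the 3 genes was 379 ± 19.4 FPKM in wild type and 281 ± 3.398 FPKM in IK-KO (SD, n = 3), or 74.1% of wild type.

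Of the 8 members that turn lanosterol into cholesterol, 5 were called lower and none higher, against 9.75% and 10.1% of all tested genes. CYP51A1, the lanosterol demethylase at chr7:92112153-92134803 (ENSG00000001630.17, minus strand), had the second largest fall among the 28. CYP51A1 levels were 31.2, 32.01 and 27.9 FPKM in wild type replicates 1 to 3, against 18.9, 18.4 and 16.9 FPKM in those of IK-KO. The IK-KO mean was 59.4% of wild type. Mean CYP51A1 was 30.4 ± 2.17 FPKM in wild type and 18.1 ± 1.04 FPKM in IK-KO (SD, n = 3), giving a log2 difference of −0.72 ± 0.08 (SE, adjusted p = 0.00116). EBP, the sterol isomerase at chrX:48521799-48528716 (ENSG00000147155.11, plus strand), read 77.1, 85.6 and 75.2 FPKM in wild type replicates 1 to 3, against 53.4, 54.3 and 58.1 FPKM in those of IK-KO. Here too the groups were well apart. Mean EBP was 79.3 ± 5.5 FPKM in wild type and 55.3 ± 2.53 FPKM in IK-KO (SD, n = 3), giving a log2 difference of −0.51 ± 0.07 (SE, adjusted p = 0.00253). MSMO1, the methylsterol monooxygenase at chr4:165327667-165343164 (ENSG00000052802.13, plus strand), read 39.9, 38.4 and 35.9 FPKM in wild type replicates 1 to 3, against 29.04, 27.6 and 28.8 FPKM in those of IK-KO. The IK-KO libraries lay close together, all below wild type. Mean MSMO1 was 38.1 ± 2.01 FPKM in wild type and 28.5 ± 0.77 FPKM in IK-KO (SD, n = 3), giving a log2 difference of −0.41 ± 0.06 (SE, adjusted p = 0.00472).

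SC5D and HSD17B7 were called lower with less margin. SC5D, the desaturase at chr11:121292681-121313410 (ENSG00000109929.10, plus strand), read 13.1, 13.6 and 11.8 FPKM in wild type replicates 1 to 3, against 9.85, 8.58 and 9.87 FPKM in those of IK-KO. The values did not overlap, but the confidence bounds did, as the IK-KO replicate 1 upper bound of 12.2 exceeded the wild type replicate 3 lower bound of 9.46. Mean SC5D was 12.8 ± 0.89 FPKM in wild type and 9.43 ± 0.74 FPKM in IK-KO (SD, n = 3), giving a log2 difference of −0.41 ± 0.09 (SE, adjusted p = 0.0201). Its call was lost without IK-KO replicate 2 or wild type replicate 1 or 2 (adjusted p 0.0649 to 0.0743). HSD17B7, the ketosteroid reductase at chr1:162790702-162812817 (ENSG00000132196.14, plus strand), read 19.6, 21.8 and 19.5 FPKM in wild type replicates 1 to 3, against 17.0, 15.6 and 14.8 FPKM in those of IK-KO. All IK-KO libraries were lower, while the neighbours had a median change of 0.21. Mean HSD17B7 was 20.3 ± 1.29 FPKM in wild type and 15.8 ± 1.12 FPKM in IK-KO (SD, n = 3), giving a log2 difference of −0.34 ± 0.08 (SE, adjusted p = 0.0246). The call was lost without IK-KO replicate 2 or 3 or wild type replicate 1 or 2 (adjusted p 0.0605 to 0.0815). Its pseudogene copy HSD17B7P2 on chromosome 10, which could share fragments with it, fell from 4.27 ± 0.81 to 2.46 ± 0.28 FPKM (SD, n = 3; adjusted p = 0.0331, and 0.0549 to 0.102 without any IK-KO replicate or without wild type replicate 1 or 3).

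The remaining members of these steps had negative changes that did not pass the test. NSDHL, which removes the carbon at position C4 with MSMO1, read 13.9, 13.8 and 12.8 FPKM in wild type replicates 1 to 3, against 10.7, 12.3 and 11.1 FPKM in those of IK-KO. DHCR7, the reductase of 7-dehydrocholesterol, read 36.4, 38.4 and 38.3 FPKM in wild type replicates 1 to 3, against 28.5, 33.9 and 34.2 FPKM in those of IK-KO. In both, each IK-KO library lay below each wild type library, with log2 changes of −0.23 ± 0.08 for each (SE, adjusted p = 0.0901 for NSDHL and 0.0969 for DHCR7). Without IK-KO replicate 1, its lowest library, the change of DHCR7 was −0.14. TM7SF2, a sterol reductase that overlaps VPS51 and ZNHIT2, was the least even of the enzymes. TM7SF2 levels were 17.3, 11.4 and 15.6 FPKM in wild type replicates 1 to 3, against 13.5, 12.01 and 9.102 FPKM in those of IK-KO. The groups overlapped, since wild type replicate 2 was below the highest IK-KO library. Mean TM7SF2 was 14.8 ± 3.0 FPKM in wild type and 11.5 ± 2.25 FPKM in IK-KO (SD, n = 3), giving a log2 difference of −0.33 ± 0.18 (SE, adjusted p = 0.259). On leaving out 1 library it ran from −0.49 (without wild type replicate 2) to −0.18 (without IK-KO replicate 3), with −0.21 without wild type replicate 1. DHCR7 overlaps the antisense locus AP002387.2, which had a mean of 16.02 FPKM in wild type and 17.8 in IK-KO (adjusted p = 0.374). Summed over the 8 genes the level was 247 ± 9.08 FPKM in wild type and 182 ± 1.06 FPKM in IK-KO (SD, n = 3), or 73.8% of wild type.

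**Figure D2:**
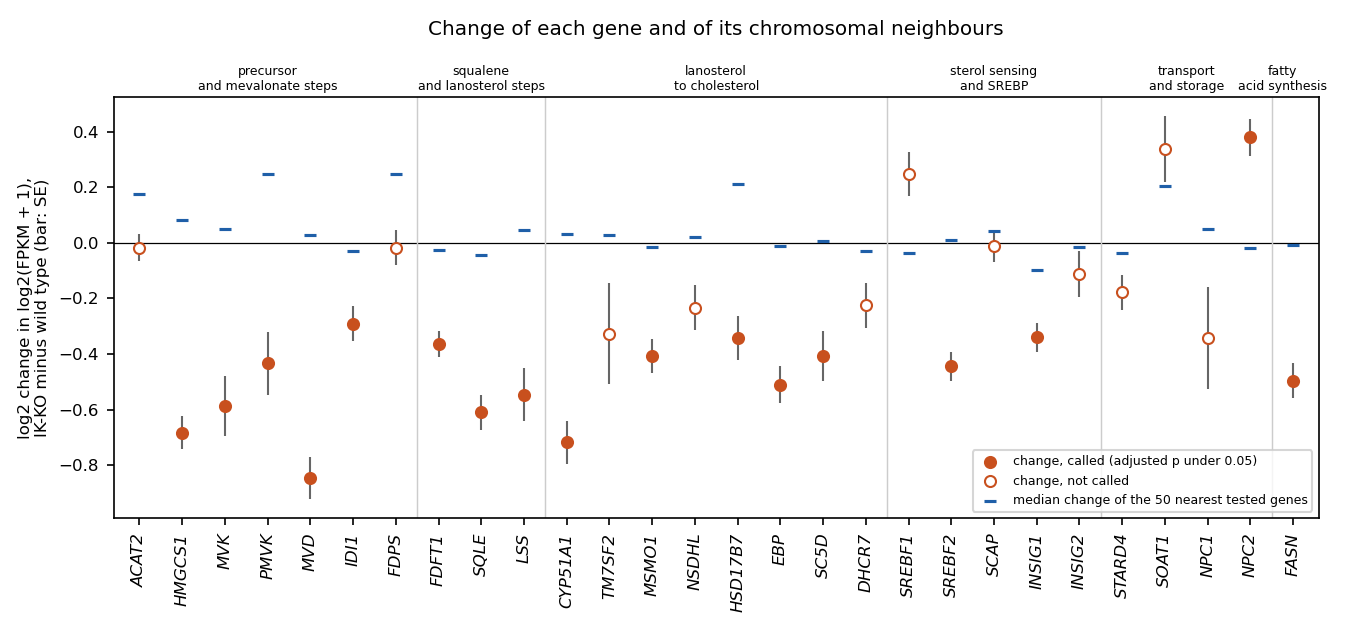
Log2 change of each gene, IK-KO minus wild type on the log2(FPKM + 1) scale, with its standard error (n = 3 libraries per group). Filled points passed the adjusted p of 0.05, open points did not, and blue dashes give the median change of the 50 nearest tested genes, which is 0.25 around PMVK and FDPS and within 0.1 of 0 around most others.

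Of the 5 genes of sterol sensing, SREBF2 and INSIG1 were called lower and none higher, against 9.75% and 10.1% of all tested genes. SREBF2, which encodes the SREBP that acts mainly on cholesterol genes, lies at chr22:41833079-41907307 (ENSG00000198911.12, plus strand). SREBF2 levels were 72.6, 71.5 and 69.8 FPKM in wild type replicates 1 to 3, against 54.5, 51.95 and 50.1 FPKM in those of IK-KO. The libraries within each group were tight and the groups far apart. Mean SREBF2 was 71.3 ± 1.42 FPKM in wild type and 52.2 ± 2.21 FPKM in IK-KO (SD, n = 3), giving a log2 difference of −0.44 ± 0.05 (SE, adjusted p = 0.00167). SREBF1, whose products act more on fatty acid genes, lies at chr17:17810399-17837011 (ENSG00000072310.17, minus strand). SREBF1 levels were 41.5, 39.1 and 45.4 FPKM in wild type replicates 1 to 3, against 54.6, 47.8 and 47.9 FPKM in those of IK-KO. All IK-KO values exceeded all wild type values, but the change did not pass the test. Mean SREBF1 was 42.01 ± 3.19 FPKM in wild type and 50.1 ± 3.9 FPKM in IK-KO (SD, n = 3), giving a log2 difference of 0.25 ± 0.08 (SE, adjusted p = 0.0725). The antisense transcript SREBF2-AS1 overlaps the start of SREBF2 and was at 2.80 ± 0.35 FPKM in wild type and 2.96 ± 0.57 in IK-KO (SD, n = 3; adjusted p = 0.846).

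The balance of SREBF1 to SREBF2, a ratio chosen after the values were seen, was 0.571, 0.547 and 0.651 in wild type and 1.001, 0.920 and 0.955 in IK-KO. It was higher in every IK-KO library. The exact permutation p was 0.1, the smallest that 3 libraries per group allow, so the ratio is given as a description only. The ratios of INSIG1 to INSIG2, HMGCS1 to ACAT2, FDFT1 to FDPS and SREBF2 to SCAP were also chosen afterwards. Each was lower in every IK-KO library, with the same permutation p.

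INSIG1, the retention protein whose own gene is a strong SREBP target, read 211, 199 and 192 FPKM in wild type replicates 1 to 3, against 162, 152 and 160.5 FPKM in those of IK-KO. It was the second most abundant gene of the 28 and all IK-KO libraries were lower. Mean INSIG1 was 200.4 ± 9.8 FPKM in wild type and 158 ± 5.35 FPKM in IK-KO (SD, n = 3), giving a log2 difference of −0.34 ± 0.05 (SE, adjusted p = 0.0051). INSIG2, its relative, read 11.2, 11.2 and 10.6 FPKM in wild type replicates 1 to 3, against 9.37, 10.9 and 10.1 FPKM in those of IK-KO. There the groups overlapped. Mean INSIG2 was 10.99 ± 0.35 FPKM in wild type and 10.1 ± 0.75 FPKM in IK-KO (SD, n = 3), giving a log2 difference of −0.11 ± 0.08 (SE, adjusted p = 0.394). Without IK-KO replicate 1 it was −0.063. SCAP, the sterol-sensing escort of SREBP, read 25.7, 25.8 and 27.1 FPKM in wild type replicates 1 to 3, against 26.1, 25.98 and 25.8 FPKM in those of IK-KO. These 6 values of SCAP overlapped and spanned the narrowest relative range of the 28, with a coefficient of variation of 2.99% in wild type and 0.62% in IK-KO. Mean SCAP was 26.2 ± 0.78 FPKM in wild type and 25.9 ± 0.16 FPKM in IK-KO (SD, n = 3), giving a log2 difference of −0.01 ± 0.06 (SE, adjusted p = 0.911). The sensing group summed to 351 ± 9.51 FPKM in wild type and 296 ± 9.13 FPKM in IK-KO (SD, n = 3), or 84.5% of wild type.

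Of the 4 transport and storage genes, 1 was called higher and none lower, against 10.1% and 9.75% of all tested genes. NPC2, the lysosomal protein that hands cholesterol on to NPC1, lies at chr14:74476192-74494177 (ENSG00000119655.10, minus strand) and was the only member called higher. NPC2 levels were 18.5, 20.4 and 18.4 FPKM in wild type replicates 1 to 3, against 24.9, 24.5 and 26.0 FPKM in those of IK-KO. Every IK-KO library was above every wild type library. Mean NPC2 was 19.1 ± 1.15 FPKM in wild type and 25.1 ± 0.76 FPKM in IK-KO (SD, n = 3), giving a log2 difference of 0.38 ± 0.07 (SE, adjusted p = 0.0086). NPC1, the membrane partner of NPC2, read 4.52, 3.99 and 6.85 FPKM in wild type replicates 1 to 3, against 3.49, 3.495 and 4.27 FPKM in those of IK-KO. Its wild type libraries were widely spread, with replicate 3 far above the others, and the groups overlapped. Mean NPC1 was 5.12 ± 1.52 FPKM in wild type and 3.75 ± 0.45 FPKM in IK-KO (SD, n = 3), giving a log2 difference of −0.34 ± 0.18 (SE, adjusted p = 0.246). Without wild type replicate 3 the change was −0.15.

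SOAT1, which esterifies cholesterol for storage, read 17.03, 15.5 and 13.4 FPKM in wild type replicates 1 to 3, against 22.2, 17.2 and 19.5 FPKM in those of IK-KO. The IK-KO values were all above wild type, the lowest by little, without passing the test, and its chromosome 1 neighbours had a median change of 0.20. Mean SOAT1 was 15.3 ± 1.83 FPKM in wild type and 19.6 ± 2.5 FPKM in IK-KO (SD, n = 3), giving a log2 difference of 0.34 ± 0.12 (SE, adjusted p = 0.093). STARD4, a carrier of sterol between membranes, read 21.6, 22.4 and 21.7 FPKM in wild type replicates 1 to 3, against 18.3, 19.7 and 19.8 FPKM in those of IK-KO. These lay below wild type in each library but did not pass. Mean STARD4 was 21.9 ± 0.45 FPKM in wild type and 19.3 ± 0.84 FPKM in IK-KO (SD, n = 3), giving a log2 difference of −0.18 ± 0.06 (SE, adjusted p = 0.0942). The overlapping antisense transcript STARD4-AS1 was called lower, from 8.13 ± 1.05 to 5.37 ± 0.41 FPKM (SD, n = 3; adjusted p = 0.0212, and 0.0518 to 0.0766 without any IK-KO replicate or without wild type replicate 2 or 3). The summed level of the 4 genes was 61.4 ± 1.07 FPKM in wild type and 67.8 ± 2.54 FPKM in IK-KO (SD, n = 3), or 110.3% of wild type.

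FASN, fatty acid synthase at chr17:82078338-82098294 (ENSG00000169710.9, minus strand), is the 1 member outside the sterol pathway. FASN levels were 78.8, 77.8 and 70.9 FPKM in wild type replicates 1 to 3, against 52.7, 51.2 and 56.5 FPKM in those of IK-KO. It fell to 70.5% of wild type with no overlap. Mean FASN was 75.8 ± 4.28 FPKM in wild type and 53.5 ± 2.72 FPKM in IK-KO (SD, n = 3), giving a log2 difference of −0.50 ± 0.06 (SE, adjusted p = 0.00247).

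**Figure D3:**
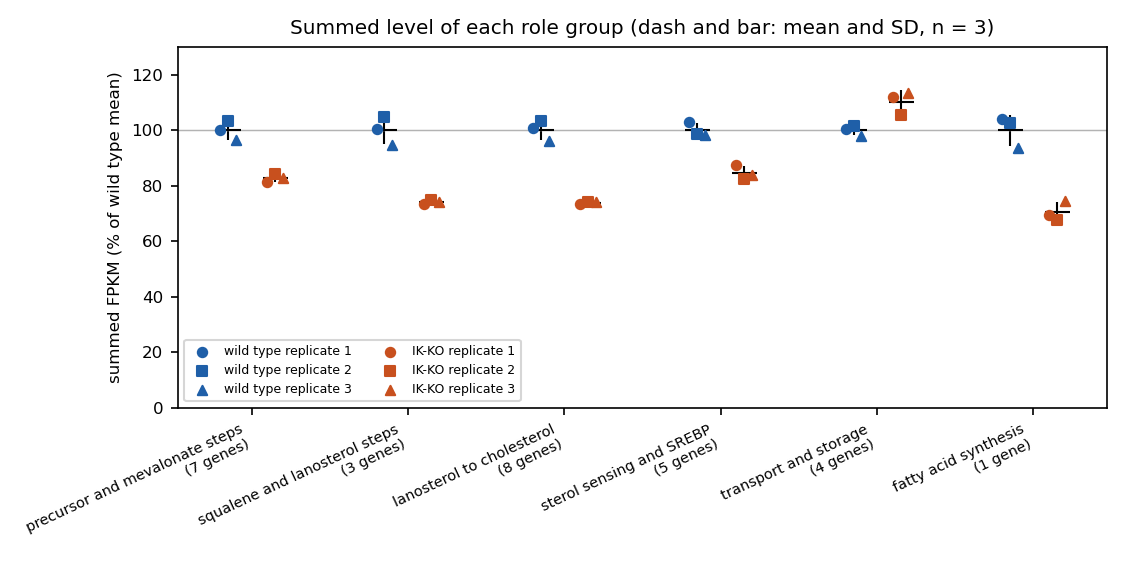
Summed FPKM of each role group per library in percent of the wild type mean, with the mean and SD of 3 libraries as dash and bar. The 3 IK-KO libraries stand below 90% in each group of synthesis and sensing genes and above 100% for transport and storage.

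Taking the 18 enzymes as a sum, the level was 1197 ± 48.1 FPKM in wild type and 936 ± 12.5 FPKM in IK-KO (SD, n = 3), or 78.2% of wild type. Libraries of 1 group differed little. Within IK-KO, the median deviation of the 18 enzymes from the group mean was within 0.01 on the log2 scale in each library. In wild type it was 0.02, 0.06 and −0.07 in replicates 1, 2 and 3, and the same medians over all tested genes were 0.02, 0.03 and −0.06. Wild type replicate 3 thus read slightly low in the enzymes and in the table as a whole.

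Some other overlapping loci carry signal that could have been divided with a member. MMAB, which faces MVK across a shared start, had 44.04 ± 3.7 FPKM in wild type and 38.6 ± 2.5 in IK-KO. VPS51 next to TM7SF2 was at 86.9 ± 8.2 and 90.6 ± 13.3 FPKM. ZNHIT2 at the other end of TM7SF2, RUSC1-AS1 at FDPS, IDI2-AS1 at IDI1, RAI1 at SREBF1, RMC1 at NPC1 and ISCA2 at NPC2 were between 1.29 and 15.02 FPKM on average in either group. Like MMAB and VPS51, these were not called. The pseudogene AC099778.2 inside SCAP was at 53.5 FPKM in wild type replicate 1 and at 0 in the other 5 libraries.

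The wider lipid network was read from 4 lists of related genes, holding 64 tested genes, of which TMEM97 is in 2 lists. Among 16 tested genes of other sterol and isoprenoid steps, 4 were called lower and none higher, with a median log2 change of −0.05, against 9.75% and 10.1% of all tested genes. ACAT1, the mitochondrial thiolase, fell by 0.56 on the log2 scale (adjusted p = 0.0107), and COQ2, of ubiquinone synthesis, fell by 0.45 (adjusted p = 0.0151). The call of COQ2 was lost without IK-KO replicate 1 or wild type replicate 1 or 2 (adjusted p 0.0504 to 0.0581). The others called were TMEM97, described with the fatty acid genes, and ERG28, a scaffold of sterol enzymes named here after its values were seen, at −0.25 (adjusted p = 0.0494). ERG28 was lost without any IK-KO replicate or wild type replicate 1 or 2 (adjusted p 0.0916 to 0.143). The genes that lead farnesyl diphosphate into dolichol and prenyl groups, among them DHDDS, NUS1, FNTA, FNTB and PGGT1B, were not called.

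Of 16 tested genes of SREBP processing and of sterol-driven protein degradation, 1 was called lower and none higher. The shares over all tested genes were 9.75% and 10.1%. The gene was VCP, with a log2 change of −0.20 (adjusted p = 0.0347). Its neighbours on chromosome 9 had a median change of −0.33, above which VCP lay by 0.12, and the call was lost without any IK-KO replicate or wild type replicate 1 or 2 (adjusted p 0.0667 to 0.103). Among 14 tested fatty acid and lipid genes known as SREBP targets, 4 were called lower and 3 higher, with a median of −0.13, beside the same 9.75% and 10.1%. SCD, the desaturase that makes oleate, read 138, 141 and 131 FPKM in wild type replicates 1 to 3, against 104, 102 and 99.6 FPKM in those of IK-KO. The IK-KO libraries were all lower. Mean SCD was 137 ± 5.01 FPKM in wild type and 102 ± 2.11 FPKM in IK-KO (SD, n = 3), giving a log2 difference of −0.42 ± 0.05 (SE, adjusted p = 0.00135). ACLY, the source of cytosolic acetyl-CoA, was called at −0.39 on the log2 scale (adjusted p = 0.0276) and lost without any IK-KO replicate or wild type replicate 1 or 2 (0.055 to 0.0892). TMEM97, a sterol-regulated membrane protein, was called at −0.26 (adjusted p = 0.0418) and lost without IK-KO replicate 2 or 3 or any wild type replicate (0.0968 to 0.106). FADS2, which desaturates polyunsaturated fatty acids, read 56.98, 52.1 and 49.8 FPKM in wild type replicates 1 to 3, against 70.3, 73.3 and 71.7 FPKM in those of IK-KO. In contrast to SCD it rose in all IK-KO libraries. Mean FADS2 was 52.98 ± 3.65 FPKM in wild type and 71.8 ± 1.54 FPKM in IK-KO (SD, n = 3), giving a log2 difference of 0.43 ± 0.06 (SE, adjusted p = 0.00373). ACSS2, acetyl-CoA synthetase, was higher by 0.57 (adjusted p = 0.0117), and ELOVL5, a fatty acid elongase, by 0.20 (adjusted p = 0.0417) with neighbours at 0.21. The call of ELOVL5 was lost without any IK-KO replicate or wild type replicate 2 or 3 (adjusted p 0.0684 to 0.124).

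Among 19 tested genes of sterol export, uptake and transport, 3 were called higher and 3 lower, with a median of 0.00, where 10.1% of all tested genes were called higher and 9.75% lower. ABCA1, the exporter of cellular cholesterol, read 1.23, 1.05 and 1.09 FPKM in wild type replicates 1 to 3, against 3.11, 2.81 and 2.61 FPKM in those of IK-KO. It was higher in each IK-KO library, on a chromosome 9 stretch whose neighbours had a median change of −0.40. Mean ABCA1 was 1.13 ± 0.097 FPKM in wild type and 2.84 ± 0.25 FPKM in IK-KO (SD, n = 3), giving a log2 difference of 0.85 ± 0.13 (SE, adjusted p = 0.00547). ABCG1, its partner in export, read 35.5, 34.1 and 34.9 FPKM in wild type replicates 1 to 3, against 45.7, 45.7 and 44.6 FPKM in those of IK-KO. The libraries of ABCG1 were tight and apart. Mean ABCG1 was 34.8 ± 0.69 FPKM in wild type and 45.3 ± 0.65 FPKM in IK-KO (SD, n = 3), giving a log2 difference of 0.37 ± 0.05 (SE, adjusted p = 0.00294). VLDLR, a lipoprotein receptor, was higher by 0.69 (adjusted p = 0.0122, and 0.0508 without wild type replicate 1). OSBPL5, an oxysterol-binding protein, read 11.8, 12.8 and 11.8 FPKM in wild type replicates 1 to 3, against 5.55, 5.74 and 3.53 FPKM in those of IK-KO. It fell in all IK-KO libraries. Mean OSBPL5 was 12.1 ± 0.59 FPKM in wild type and 4.94 ± 1.22 FPKM in IK-KO (SD, n = 3), giving a log2 difference of −1.16 ± 0.16 (SE, adjusted p = 0.00315). GRAMD1B and STARD3, which move sterol between membranes, were called at −0.70 (adjusted p = 0.0274) and −0.43 (adjusted p = 0.00845) on the log2 scale. The call of GRAMD1B was lost without IK-KO replicate 2 or 3 or wild type replicate 1 or 2 (adjusted p 0.0647 to 0.0816).

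**Figure D4:**
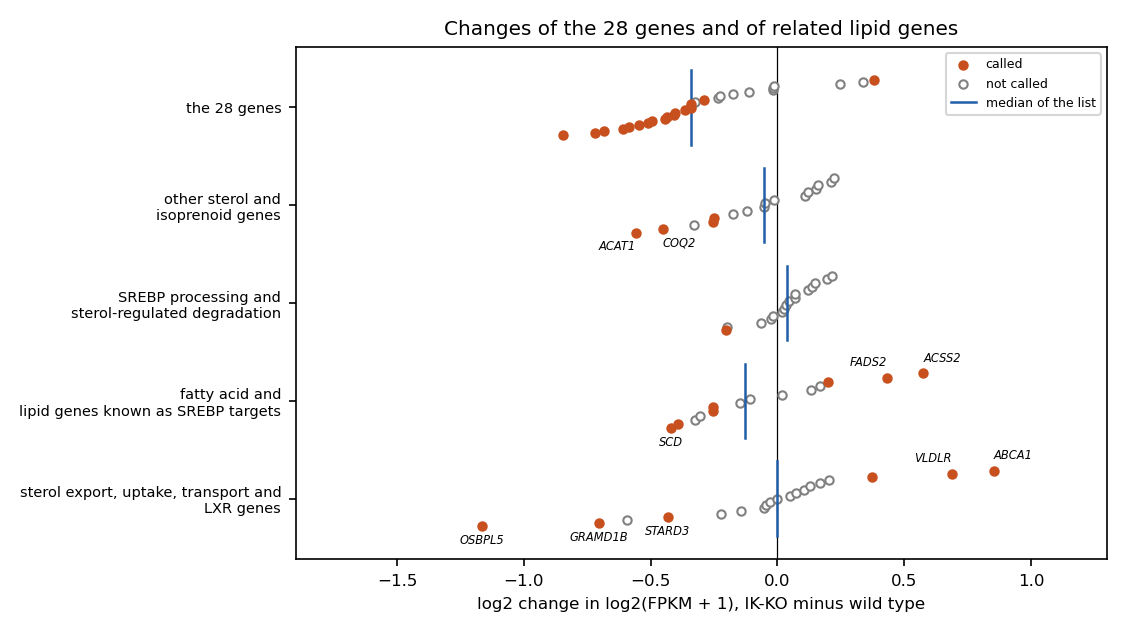
Log2 change of each tested gene in the 28 and in the 4 related lists, IK-KO minus wild type on the log2(FPKM + 1) scale, with called genes filled and the median of each list as a blue line. The median of the 28 is −0.34, and those of the lists lie between −0.13 and 0.04, with OSBPL5 (−1.16) and ABCA1 (0.85) at the ends.

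Promoter windows were found for 24 of the 28 genes, some with several starts, and 6 sets of letters were searched on both strands. ACAT2, FDFT1, SQLE and FASN had no window, so the called falls of FDFT1, SQLE and FASN are outside the motif counts. An NF-Y box, CCAAT, was present in 18 of 24 members (75.0%), against 39.7% of the 27303 genes with a window and 44.1% of the 8921 that were also tested. The Sp box GGGCGG was in 23 (95.8%, against 48.3% and 77.5%). The full sterol response element TCACNCCAC was in SREBF2 alone (4.17%, against 1.39% and 1.5%). Its shorter form CACNCCAC, which overlaps it, was also in IDI1, SC5D and INSIG1 (16.7% in all, against 7.05% and 7.66%). The E-box CACGTG was in LSS, SC5D, INSIG1 and SCAP (16.7%, against 8.78% and 13.0%), and the IKAROS core TGGGAA in MVK and FDPS (8.33%, against 28.1% and 27.6%).

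Of the 18 members with an NF-Y box, 11 were called lower and 1 higher, against 9.75% and 10.1% of all tested genes. Their median log2 change was −0.34. Other tested genes with the box were not split by call. Of the 6 without, PMVK and CYP51A1 were called lower and INSIG2, SREBF1, SCAP and NPC1 were not called, with a median of −0.23. All 4 members with the shorter sterol response element were called lower, against 9 of the 20 without it and 9.75% of all tested genes. Of these 4, IDI1 and SC5D lost the call on leaving out single libraries. Other tested genes with this element were not split by call either. The median log2 changes were −0.37 with it and −0.33 without. These matches are descriptions of letters in a window, and whether a factor binds there was not tested.

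**Figure D5:**
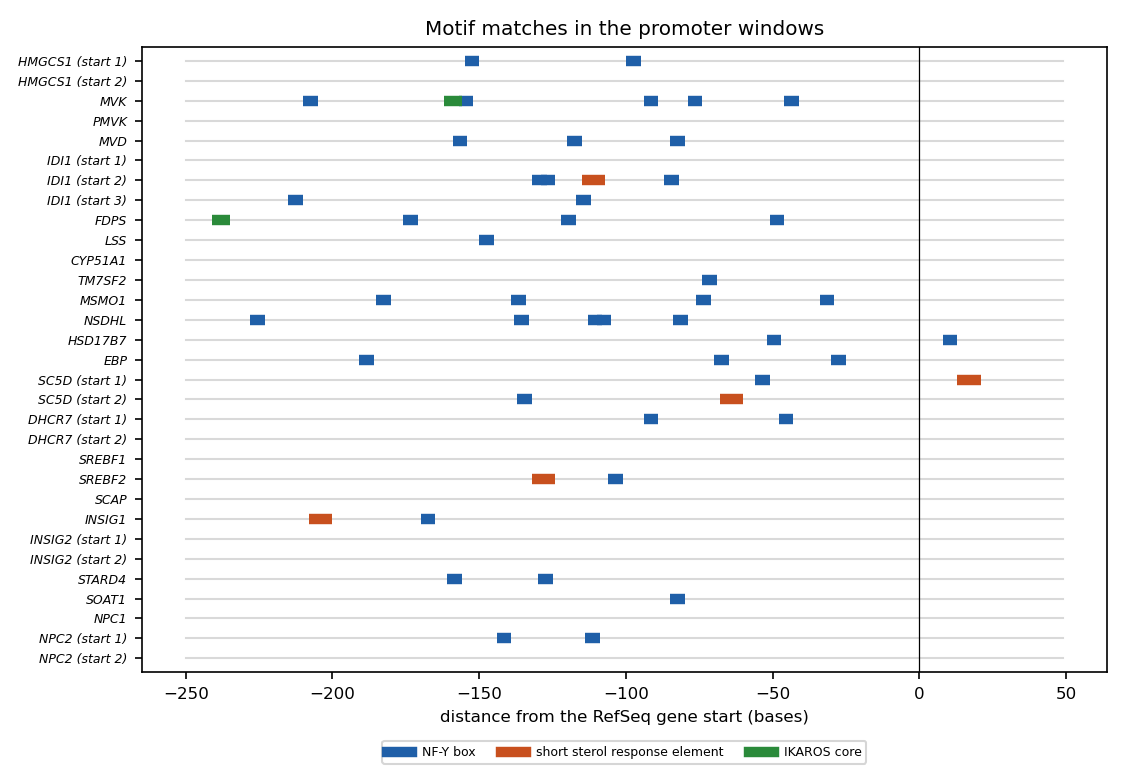
Position of matches to the NF-Y box, the shorter sterol response element and the IKAROS core in each promoter window, by distance in bases from the RefSeq start (0), with 1 line per start. NF-Y matches (blue) are the most frequent of the 3, sterol response elements (orange) appear in IDI1, SC5D, SREBF2 and INSIG1, and the IKAROS core (green) in MVK and FDPS.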

How the data were processed

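RNA-seq of polyadenylated RNA from MOLT-4 cells was analysed in 3 wild type and 3 IK-KO libraries, grouped by the labels. The authors deposited 1 table of FPKM per library, already scaled for transcript length and depth, with confidence bounds and an estimation status. The submitters' processing notes list STAR 2.6.1c, Cufflinks 2.2.1, HOMER 4.10 and hg38, without saying which step each served. The strand setting and the annotation are not given in the sources used here. The libraries were made with a NEBNext Ultra II RNA kit.

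Rows of 1 identifier were summed, and 29 identifiers with a failed estimate were left out. Genes with a mean of at least 1 FPKM were tested on the log2(FPKM + 1) scale using limma (version 3.58.1, R 4.3.3; trended empirical Bayes, two-sided, Benjamini-Hochberg over 12652 genes), and an adjusted p under 0.05 was called. Fold changes on this scale understate those of low genes. The fit was tested on simulated data. For the neighbour values, the median change of the 50 nearest tested genes was subtracted. The SE of the main fit was kept, so their adjusted p does not count the error of that median. All 49727 identifiers that could be compared lay at their GENCODE release 44 position on GRCh38. Promoter windows came from RefSeq. The members and lists were chosen with earlier results of these data known. All 28 members were named, up to 3 called rises and 3 called falls per list, overlapping or name-sharing loci with a mean of at least 1 FPKM, and IKZF1. LBR, DHDDS, NUS1, FNTA, FNTB and PGGT1B were named after their values were seen. 1 result of the related lists is not reported here. Equal replicate numbers were not taken to pair the samples in the main fit.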

Additional observations from a re-analysis of the deposited data

How the results depend on the processing

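Of 17 called members, 13 were called under each of 14 alternatives: HMGCS1, MVK, MVD, FDFT1, SQLE, LSS, CYP51A1, MSMO1, EBP, INSIG1, SREBF2, NPC2 and FASN. PMVK, IDI1, HSD17B7 and SC5D were lost in some. The count was 17 with a pseudocount of 0.1, with a mean of at least 5 FPKM and on the TPM scale, 16 without the variance trend, 15 without a filter, 18 on the median-ratio scale, where NSDHL was gained (adjusted p = 0.0471), and 19 relative to chromosomal neighbours. Leaving out 1 library gave 13 to 16. With the replicate number as a block (replicate block) it was 14, losing IDI1, HSD17B7 and SC5D. Deviations from the group mean on the log2(FPKM + 1) scale correlated at 0.07, 0.02 and 0.01 between same-numbered samples of wild type and IK-KO. The labels name no pairing. In the related lists 17 genes were called, 10 without a filter, 11 without the variance trend, 10 with the replicate block, and 9 to 15 on leaving out 1 library, lowest without wild type replicate 1 or 2 (9 each), 10 without IK-KO replicate 2 and 11 without IK-KO replicate 3. On leaving out 1 library, changes near 0 turned sign: FDPS ran from −0.072 to 0.019 (0.0099 without IK-KO replicate 1, 0.0081 without IK-KO replicate 3, highest without wild type replicate 2), SCAP from −0.025 to 0.012 (highest without wild type replicate 3) and ACAT2 from −0.046 to 0.0066 (highest without IK-KO replicate 2, 0.0060 without wild type replicate 2). Relative to their neighbours, VCP stood at 0.12 and ELOVL5 at −0.0088. On the printed strand alone, the shorter sterol response element was in 4.17% of members, the NF-Y box in 37.5% and the IKAROS core in 0%. The causes were not tested. With no counts, depth and counting error were not known beyond the deposited bounds.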
